A study of Mus musculus with 4 samples.

Results

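The transcript levels of *Trp53*, which encodes the transcription factor p53, and of 9 genes known as its regulators or as its arrest and feedback targets were examined in embryonic mouse nasal process (NP) tissues. The 9 genes are *Mdm2*, *Mdm4*, *Ppm1d*, *Cdkn1a*, *Ccng1*, *Btg2*, *Zmat3*, *Phlda3* and *Trp53inp1*. These 10 genes, of 13577 listed in the deposited table, were found by their symbols. They were selected on known roles while their difference in CPM (the read count of a gene scaled to the size of its library) between these same control and mutant libraries was already known, so they count as chosen by those values. Their levels and fold changes are therefore given as a description. Where a gene is said to be past a test threshold, that too is a description and does not count as support. All 10 passed the filter of a mean above 1 CPM.

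Bulk RNA-Seq was performed on NP tissues at E11.5, the stage at which the paired processes grow toward each other to form the middle of the face. There were 2 libraries titled control and 2 titled ca-*Acvr1* mutant. The mutants, ca-*Acvr1(A11)* fl/+;*P0-Cre*, carry a floxed transgene for a constitutively active form of ACVR1, a type I receptor for bone morphogenetic proteins (BMPs), and *P0-Cre* switches it on in the neural crest lineage. The controls carry *P0-Cre* without the transgene, so both groups express Cre. The transgene is a single line, A11, driven by a broadly active promoter, and other cells of the tissue, such as epithelium, vessels and blood, are not its intended target. The study used embryos of both sexes on a mixed background.

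The labels disagree on which libraries are mutant. The genotype field of the libraries titled control names the transgene, and that of the libraries titled mutant names *P0-Cre* alone. The titles were used here, and every direction given below would turn round if the genotype fields were right. The CPM of *Acvr1* was 21.5 and 23.1 in controls against 24.1 and 12.6 in mutants, which does not decide between the labels. Whether a library came from 1 embryo or a pool is not stated in the sources used here, so the errors below rest on spread between libraries, which may be technical. The limma fit used below also draws the error of each gene toward that of genes of similar level. A printed error is therefore not the spread of that gene's own libraries alone. The libraries held 1956831 to 2408827 reads, so 1 read equals 0.415 to 0.511 CPM, and the 10 genes had 17 to 461 reads in a library. At 2 libraries a group, 0.333 is the smallest two-sided p an exact permutation of the labels allows for a single gene.

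p53 is held at a low level in unstressed cells by MDM2, a ubiquitin ligase that marks it for degradation. DNA damage, disturbed ribosome assembly and other stresses release p53, which binds DNA as a tetramer and switches on its target genes. Some targets halt the cell cycle, others feed back on p53 itself, and *Mdm2* is among the latter. The amount of p53 protein is set mostly after translation, so the level of its transcript is a poor measure of its activity. The embryonic face is known to be sensitive to p53, since excess p53 activity in other mouse models depletes cranial neural crest cells (CNCCs).

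p53 binds a pair of adjacent 10-base elements, and the 20 bases of such a pair were searched for in RefSeq promoter windows of GRCm38.p6. Each window runs from 250 bases before to 50 bases after a transcript start. The core C and G of each element were required, no spacer was allowed, and the consensus reads the same on both strands. Of the 10 genes, 8 had a window, and *Zmat3* and *Trp53inp1* had none. A pair with at most 1 mismatch lay in 22 of 32851 windows (0.067%), and among the 8 genes it lay near *Cdkn1a* and *Ccng1*, the genes with the largest fold changes of the 10. The limit of 1 mismatch was set after the windows of these genes had been seen. The window of *Cdkn1a* at the more upstream of its annotated starts, chr17:29090729-29091028 on the plus strand, is shown because its pair and that of *Ccng1* are the closest matches found for the 10 genes. Capitals mark the 20 bases of the pair, chr17:29090928-29090947, which lie −51 to −32 bases from that start and outside every gene annotated by GENCODE. In the window of the other *Cdkn1a* start, chr17:29093519-29093818, the nearest pair had 7 mismatches.
Cdkn1a promoter: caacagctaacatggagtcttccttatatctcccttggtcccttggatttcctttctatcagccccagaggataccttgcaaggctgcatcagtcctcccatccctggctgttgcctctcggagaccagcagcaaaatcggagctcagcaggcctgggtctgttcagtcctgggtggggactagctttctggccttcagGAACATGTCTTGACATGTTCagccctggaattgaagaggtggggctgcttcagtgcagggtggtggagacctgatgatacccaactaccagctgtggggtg

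The window of *Ccng1*, chr11:40755237-40755536 on the minus strand, is shown for the same reason. Its pair, in capitals, occupies chr11:40755462-40755481, from −195 to −176 bases relative to the start, and also lies outside every annotated gene.
Ccng1 promoter: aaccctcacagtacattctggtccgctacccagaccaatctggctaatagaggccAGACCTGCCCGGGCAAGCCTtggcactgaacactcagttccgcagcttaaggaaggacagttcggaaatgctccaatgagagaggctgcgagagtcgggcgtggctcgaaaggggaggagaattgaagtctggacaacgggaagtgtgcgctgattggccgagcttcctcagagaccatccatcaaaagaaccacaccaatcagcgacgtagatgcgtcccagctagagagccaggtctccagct

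Among 9751 genes tested for expression that had a window, 6 (0.0615%) held a pair with at most 1 mismatch. Their pairs are set side by side because the 6 genes did not move alike, and here capitals mark bases that match the consensus and lower case the base that does not.
Cdkn1a: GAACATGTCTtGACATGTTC
Ccng1: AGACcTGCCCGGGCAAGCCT
Gtse1: GAGCAAGTTgGGGCTTGCCT
Rps27l: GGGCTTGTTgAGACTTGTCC
Mthfd1: AAACTTGCTCAGACAgGCCC
Calhm2: GGGCAAGCCTAGGCAAGaTC
The log2 fold changes of the 4 genes that are not among the 10 were 0.59 for *Gtse1*, which restrains p53 after the cell cycle passes its DNA damage checkpoint, 0.27 for the ribosomal protein gene *Rps27l*, 0.22 for *Mthfd1*, an enzyme of folate metabolism, and −0.95 for *Calhm2*, a channel gene at 0.936 to 4.44 CPM. None of these 4 passed the limma test. They are named for their sequence and fall outside the rule for named genes.

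In the windows of the other genes the nearest pair had 3 mismatches for *Trp53*, 4 for *Ppm1d*, 5 for *Phlda3*, 7 for *Btg2* and *Mdm4* and 9 for *Mdm2*. Of all windows, 1.38% hold a pair with at most 3 mismatches and 4.8% one with at most 4. The pair of *Trp53*, chr11:69580284-69580303, is given for comparison with those of *Cdkn1a* and *Ccng1*.
Trp53: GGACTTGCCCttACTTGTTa
A match of letters is not a measurement of binding, and these windows leave out introns, where p53 elements of other targets may lie.

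*Cdkn1a* and *Ccng1* had the largest differences of the 10 genes, with means 5.75-fold and 4.02-fold higher in the mutant libraries. *Phlda3*, *Zmat3*, *Mdm2*, *Trp53inp1* and *Btg2* were 1.62-fold to 2.81-fold higher, and in these 7 genes both mutant libraries lay above both control libraries. *Mdm4* was 1.27-fold higher, also without overlap. *Trp53* and *Ppm1d* had lower means in the mutant libraries, 0.780 and 0.900 times the control means, and their groups overlapped. All 10 values in each library are shown in the plot of CPM by library.

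**Figure D1:**
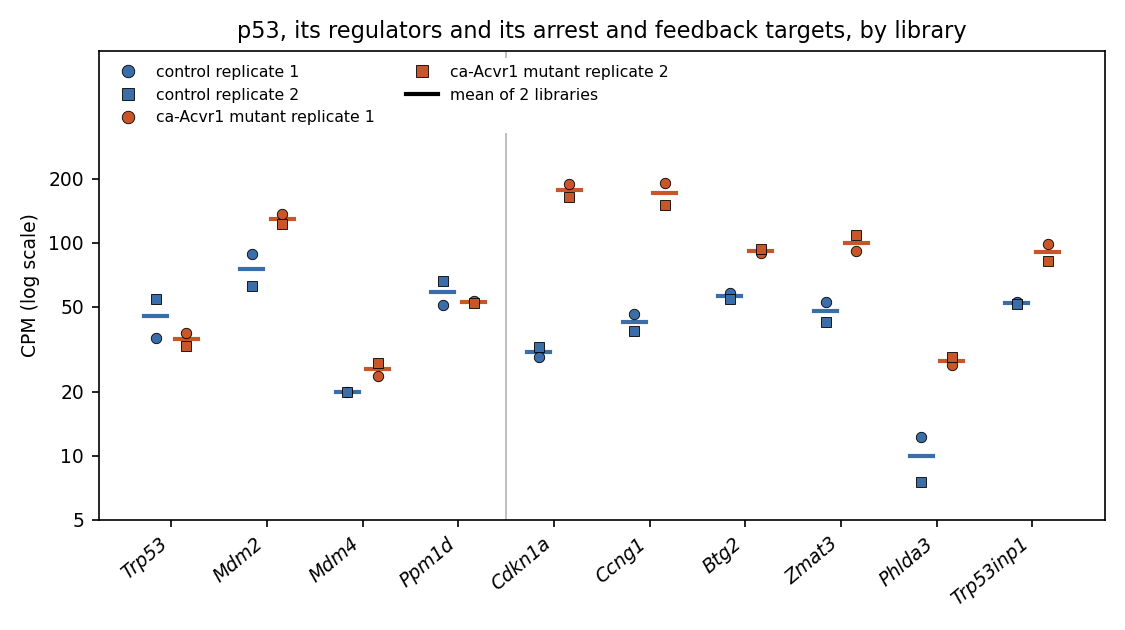
CPM on a log axis for each of the 10 genes in the 4 libraries, with p53 and its regulators left of the vertical line and targets right of it. Blue points are control and orange points mutant libraries (circles, replicate 1, and squares, replicate 2), and bars are means of 2 libraries. The mutant libraries sit above the controls for all genes except *Trp53* and *Ppm1d*.

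Of the 10 genes, 7 were past the threshold (adjusted p under 0.05 by limma on log2(CPM + 1), with Benjamini-Hochberg adjustment over all 12462 genes tested) as higher in the mutant libraries, where 38 of all genes tested (0.305%) were. As lower in the mutant libraries, 0 of the 10 were past it, beside 74 of all genes tested (0.594%). The count at an unadjusted p under 0.05 was 7 higher and 0 lower, beside 676 higher (5.42%) and 514 lower (4.12%) of all genes tested. These shares are also the background for the unadjusted counts of the lists below. With edgeR on the reads recovered from the CPM values the count was 7, beside 0.337% of all genes tested. DESeq2 called 3, *Cdkn1a*, *Ccng1* and *Zmat3*, beside 0.076% of the 10529 genes for which it gave an adjusted p. Both mutant libraries were above both controls for 8 of the 10 genes and for 21.9% of all genes tested, and below both for 0 of the 10 and for 16.8% of all. Because the genes were picked with this contrast in view, nothing is read from these counts. The median log2 fold change of the 10 genes was 0.79, and that of all genes tested was 0.03.

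**Figure D2:**
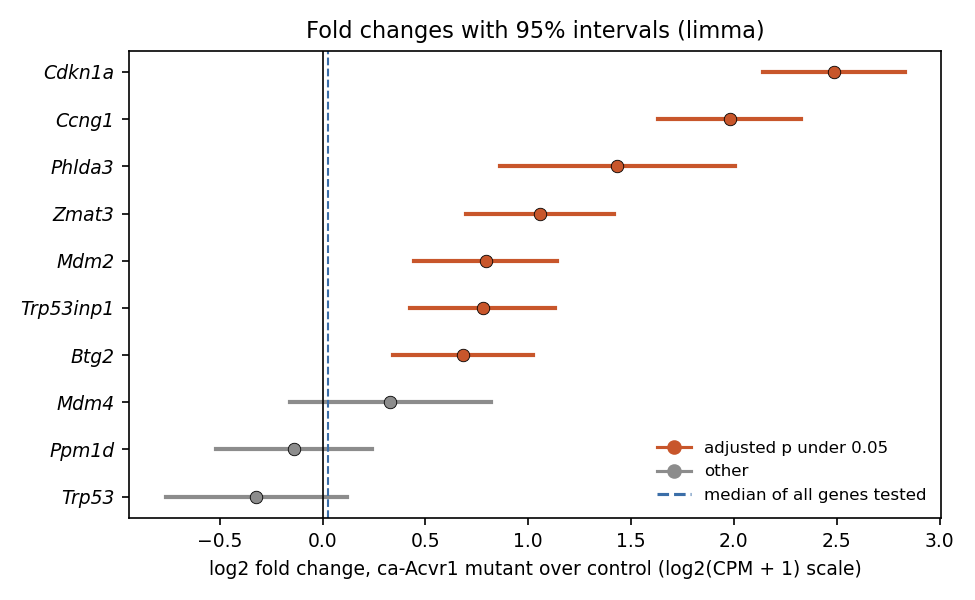
Log2 fold change of each gene, mutant over control, with its 95% interval from limma on the log2(CPM + 1) scale. Orange marks the 7 genes past the adjusted threshold and grey the other 3, whose intervals include 0, and the dashed line is the median of all genes tested, 0.03.

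*Trp53* (chr11:69580359-69591873 in GENCODE's annotation of GRCm38, plus strand) had 35.8 and 54.6 CPM in controls, and 37.8 and 32.8 CPM in mutants. The first control library lay among the mutant libraries, and the other one stood above all 3. The log2 fold change was −0.32 with a standard error (SE) of 0.21 and a 95% interval of −0.76 to 0.12. The controls alone differed by 0.61 on the log2 scale. Leaving out control replicate 2 gave −0.02 and leaving out control replicate 1 gave −0.62, so its size rested on which control library was used.

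*Mdm2* (chr10:117688875-117710758, minus strand), the ligase that degrades p53 and is itself induced by it, was at 88.4 and 62.6 CPM in the control and 137 and 123 CPM in the mutant libraries. The lowest mutant library was 1.39 times the highest control. The log2 fold change was 0.79 (SE 0.17, 95% interval 0.44 to 1.14), against a gap of 0.50 between the control replicates. Without control replicate 2 it was 0.55 and without mutant replicate 1 it was 0.72, and neither was past the threshold.

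*Mdm4* (chr1:132959484-133030561, minus strand), a relative of *Mdm2* that holds p53 inactive without degrading it, was at 19.93 and 19.98 CPM in the control and 23.7 and 27.1 CPM in the mutant libraries. The groups did not overlap, but the interval of the log2 fold change, −0.16 to 0.82 around 0.33, includes 0. *Ppm1d* (chr11:85311244-85347066, plus strand) encodes WIP1, a phosphatase that removes activating marks from p53 and its kinases and is a known p53 target. It was at 51.1 and 66.1 CPM in the control and 53.6 and 51.9 CPM in the mutant libraries. The mutant values lay within the range of the controls, and the log2 fold change was −0.14 (SE 0.18, 95% interval −0.52 to 0.24). It was 0.04 without control replicate 2, so its direction was not fixed.

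QuantSeq reads start near the poly(A) tail and do not grow in number with transcript length, so CPM was not divided by length, and ratios between genes are read only for how they moved between libraries. The ratio of *Mdm2* to *Trp53* in CPM was 2.47 and 1.15 in the control and 3.62 and 3.76 in the mutant libraries. That of *Mdm2* to *Mdm4* was 4.44 and 3.13 in the control and 5.77 and 4.53 in the mutant libraries. Both ratios were higher in each mutant library than in either control. For *Mdm2* to *Mdm4* this was a near tie, 4.53 in mutant replicate 2 beside 4.44 in control replicate 1. *Mdm4* had only 39 to 58 reads in a library.

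*Cdkn1a* (chr17:29090976-29100727, plus strand) encodes p21, an inhibitor of cyclin-dependent kinases and the main effector of p53-dependent arrest in the cell cycle. Control libraries had 29.1 and 32.4 CPM, from 57 and 73 reads, and mutant libraries 189.7 and 164 CPM, from 457 and 351 reads. The lowest mutant library was 5.07 times the highest control. The exact Poisson intervals, which cover counting error only, ended at 40.7 CPM for the higher control and began at 148 CPM for the lower mutant. The log2 fold change was 2.48 (SE 0.17, 95% interval 2.14 to 2.83). The ratio of *Cdkn1a* to *Trp53* was 0.814 and 0.593 in the control and 5.02 and 5.01 in the mutant libraries. Among the 10 genes *Cdkn1a* ranked 8th by mean CPM in the control and 1st in the mutant libraries.

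*Ccng1* (chr11:40748552-40755311, minus strand) encodes cyclin G1, a p53 target that recruits a phosphatase to MDM2. It was at 46.5 and 38.6 CPM in the control and 191 and 151 CPM in the mutant libraries. The lowest mutant library was 3.25 times the highest control, and the log2 fold change was 1.98 (SE 0.17, 95% interval 1.63 to 2.33). It stood 7th of the 10 genes in the control and 2nd in the mutant libraries, whereas *Mdm2* stood 1st and 3rd.

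*Btg2* (chr1:134075170-134079120, minus strand), an antiproliferative gene that acts on messenger RNA decay and transcription, was at 58.3 and 54.6 CPM in the control and 89.3 and 93.1 CPM in the mutant libraries. Both groups were tight, with gaps of 0.09 and 0.06 between replicates on the log2 scale, and the lowest mutant library was 1.53 times the highest control. Its log2 fold change of 0.68 (SE 0.17, 95% interval 0.34 to 1.02) was the smallest of the 7 past the threshold. It was 0.64 without control replicate 2, 0.71 without mutant replicate 1 and 0.65 without mutant replicate 2, and in these 3 cases it was not past the threshold. The same held with a pseudocount of 0.1 CPM, where it was 0.69, and with upper-quartile scaling, where it was 0.64.

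The remaining 3 targets act on transcripts, on survival signals and on p53 itself. *Zmat3* (chr3:32334792-32366014, minus strand), an RNA-binding zinc finger protein, was at 52.6 and 42.6 CPM in the control and 91.7 and 109 CPM in the mutant libraries. Its log2 fold change was 1.06 (SE 0.18, 95% interval 0.70 to 1.42), and it was the only 1 of these 3 that DESeq2 called.

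*Phlda3* (chr1:135766119-135769136, plus strand), which competes with AKT for membrane lipids and so restrains it, was the least abundant of the 10 genes in the control libraries. It was at 12.3 and 7.55 CPM there, from 24 and 17 reads, and at 26.6 and 29.0 CPM in the mutant libraries. The Poisson interval of the lower control, 4.40 to 12.1 CPM, covers the value of neither mutant library. The log2 fold change was 1.43 (SE 0.28, 95% interval 0.86 to 2.01), and the SE was the largest of the 10.

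*Trp53inp1* (chr4:11156431-11174379, plus strand) encodes a stress protein that helps kinases phosphorylate p53 and takes part in autophagy. It was at 52.6 and 51.5 CPM in the control and 98.4 and 82.4 CPM in the mutant libraries. The log2 fold change was 0.78 (SE 0.17, 95% interval 0.43 to 1.13). It was 0.65 and not past the threshold without mutant replicate 1. By DESeq2 *Mdm2*, *Btg2*, *Phlda3* and *Trp53inp1* had log2 fold changes of 0.76, 0.67, 1.47 and 0.77 and were not past its adjusted threshold.

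The 10 genes together made up 447 and 431 CPM in the control and 939 and 863 CPM in the mutant libraries. *Cdkn1a* supplied 6.52% and 7.53% of that sum in the control and 20.2% and 19.02% in the mutant libraries, and *Ccng1* 10.4% and 8.97%, then 20.4% and 17.5%. Without these 2 genes the sum was 371 and 359.6 CPM in the control and 558 and 548 CPM in the mutant libraries. Because 3′ reads fall near transcript ends, the last exon of a single coding transcript was checked for each of the 10 genes. It overlaps no exon of another annotated gene on either strand, and other 3′ ends of these genes were not checked. All values of the 10 genes are whole reads.

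Paralogs of the 10 genes, which share sequence and often biochemical function but are not all p53 targets, were also examined. Of 18 tested, which do not include *Ccng2* because it is in a list of p53 targets, 0 were past the limma threshold in either direction, 1 was higher and 1 lower at an unadjusted p under 0.05, and edgeR, DESeq2 and limma-voom also called 0 of these 18. Their median log2 fold change was 0.01, close to the 0.03 of all genes tested. *Cdkn1c* and *Ccni*, the most abundant paralogs, had log2 fold changes of −0.23 and −0.19. *Phlda2*, at 1.53 and 3.995 CPM in the control and 4.98 and 12.6 CPM in the mutant libraries, stood highest at 1.34 (SE 0.45), and *Zmat5* lowest at −0.87 (SE 0.29). These last 2, and the pairs below, were picked after their values were seen.

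Within the family of *Cdkn1a*, whose other members encode p27 and p57, *Cdkn1b* was at 105 and 104 CPM in the control and 86.3 and 119 CPM in the mutant libraries. *Cdkn1a* made up 4.502% and 4.205% of the CPM of the family in the control and 24.7% and 21.5% in the mutant libraries. *Cdkn1c* remained the most abundant of the family in every library, at 481.5 to 634 CPM.

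*Ccng2*, the paralog of *Ccng1*, was at 58.3 and 95.4 CPM in the control and 54.4 and 30.9 CPM in the mutant libraries. Its log2 fold change of −0.85 (SE 0.23) was not past the limma threshold, while edgeR and limma-voom on recovered reads called it lower. The ratio of *Ccng1* to *Ccng2* was 0.798 and 0.405 in the control and 3.52 and 4.89 in the mutant libraries, so it was higher in both mutant libraries.

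For *Btg2* over *Btg1* the ratio was 2.59 and 1.54 in the control and 3.21 and 3.83 in the mutant libraries. For *Phlda3* over *Phlda1* it was 0.118 and 0.0780, then 0.271 and 0.286, but for *Phlda3* over *Phlda2*, which had 3 to 27 reads in a library, it was 8.0 and 1.89, then 5.33 and 2.30, and the groups overlapped. For *Trp53inp1* over *Trp53inp2* it was 2.10 and 1.66, then 3.54 and 2.84. In the pairs with *Btg1*, *Phlda1* and *Trp53inp2* both mutant libraries exceeded both controls. The interval of the paralog was −0.61 to 0.38 for *Btg1*, −0.32 to 0.31 for *Phlda1*, 0.43 to 2.26 for *Phlda2* and −0.43 to 0.48 for *Trp53inp2*.

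**Figure D3:**
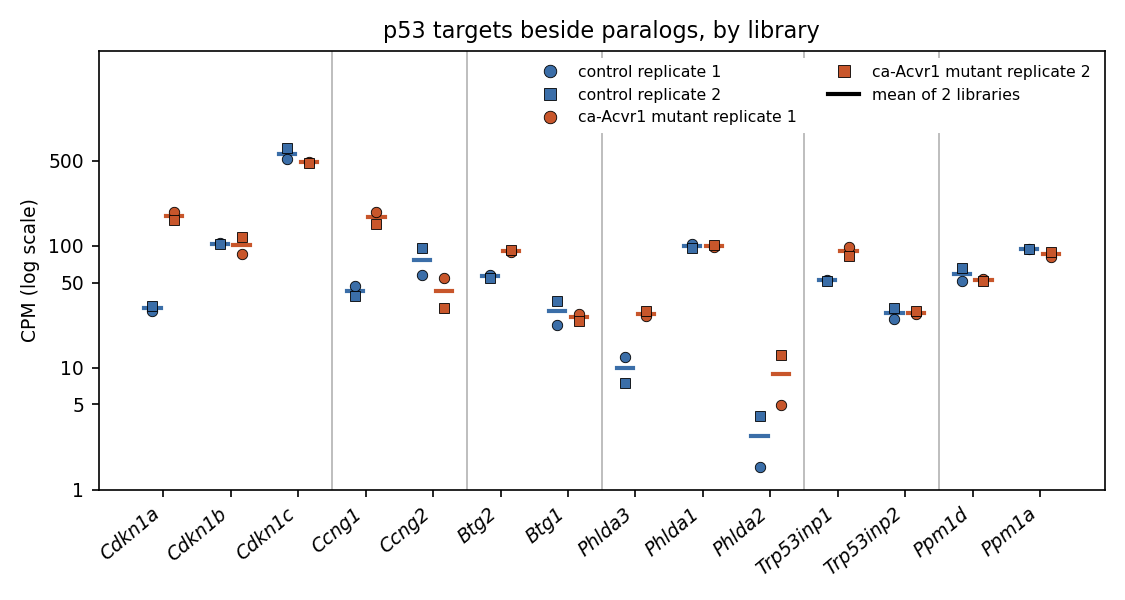
CPM on a log axis for targets of p53 beside paralogs of each, in the same 4 libraries (blue, control, and orange, mutant, with circles for replicate 1, squares for replicate 2 and bars for the mean of 2). *Cdkn1a* moved from 29.1 and 32.4 CPM to 189.7 and 164 CPM, while *Cdkn1b* spanned 86.3 to 119 CPM and *Cdkn1c* 481.5 to 634 CPM over all libraries.

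Other genes of the p53 pathway were taken from lists written by hand with earlier results of these data known. Of 91 such genes 78 were tested, and their calls are given as a description. Among them 2 were past the limma threshold, both higher in the mutant libraries and both in the list of targets that act in cell death. *Eda2r*, a receptor of the tumor necrosis factor family, rose from 2.56 and 3.995 CPM to 38.2 and 29.9 CPM (log2 fold change 3.05, SE 0.31). *Perp*, a membrane protein of cell junctions that is also typical of epithelia, rose from 25.0 and 19.1 CPM to 45.7 and 43.5 CPM (log2 fold change 0.99, SE 0.22). DESeq2 called *Eda2r* alone.

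Of the 12 death targets tested, all had a log2 fold change above 0, beside 6752 of all 12462 genes tested. The 12 had a median of 0.53, and 7 of them had an unadjusted p under 0.05 by limma. *Siva1* and *Ei24*, the most abundant of them, were at 0.03 and 0.40. The 10 targets in DNA repair and nucleotide supply had a median of 0.35. Here 0 passed the threshold by limma, edgeR, DESeq2 or limma-voom, and 3 were higher at an unadjusted p under 0.05 by limma. *Pcna*, the clamp of replicating DNA, was at −0.15.

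The 17 targets in stress and metabolism had a median of 0.29, and 0 passed by any of the 4 tools. By limma 7 were higher and 2 lower at an unadjusted p under 0.05, and *Gpx1*, the most abundant of them, was at −0.02. The 13 other targets in arrest and feedback had a median of 0.21, with 7 above and 6 below 0. Limma called 0 of them, with 1 higher and 1 lower at an unadjusted p under 0.05, and *Trim24* and *Notch1* were at −0.12 and 0.21. Among 26 proteins that act on p53, such as its kinases and deubiquitinases, the median was 0.13. Limma and the other 3 tools called 0 of these 26, with 1 higher at an unadjusted p under 0.05 by limma. *Trim28* and *Rpl23* were at 0.01 and 0.18.

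Genes of cell division were examined because p21 is known to act on the cell cycle. Of 35 tested, 0 were called by limma, edgeR, DESeq2 or limma-voom, and by limma 1 was higher and 1 lower at an unadjusted p under 0.05. Their median log2 fold change was −0.01. *Top2a* was at 1770.2 and 1507 CPM in the control and 1563 and 1677 CPM in the mutant libraries, and *Birc5* had a log2 fold change of 0.05 (95% interval −0.24 to 0.34). In the plotted order of the lists, the median fell from 0.79 in the 10 genes through 0.53, 0.35, 0.29, 0.21 and 0.13. It was near 0 in the paralogs and the cell division genes, which are plotted last. That order is a description of lists written with results known.

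**Figure D4:**
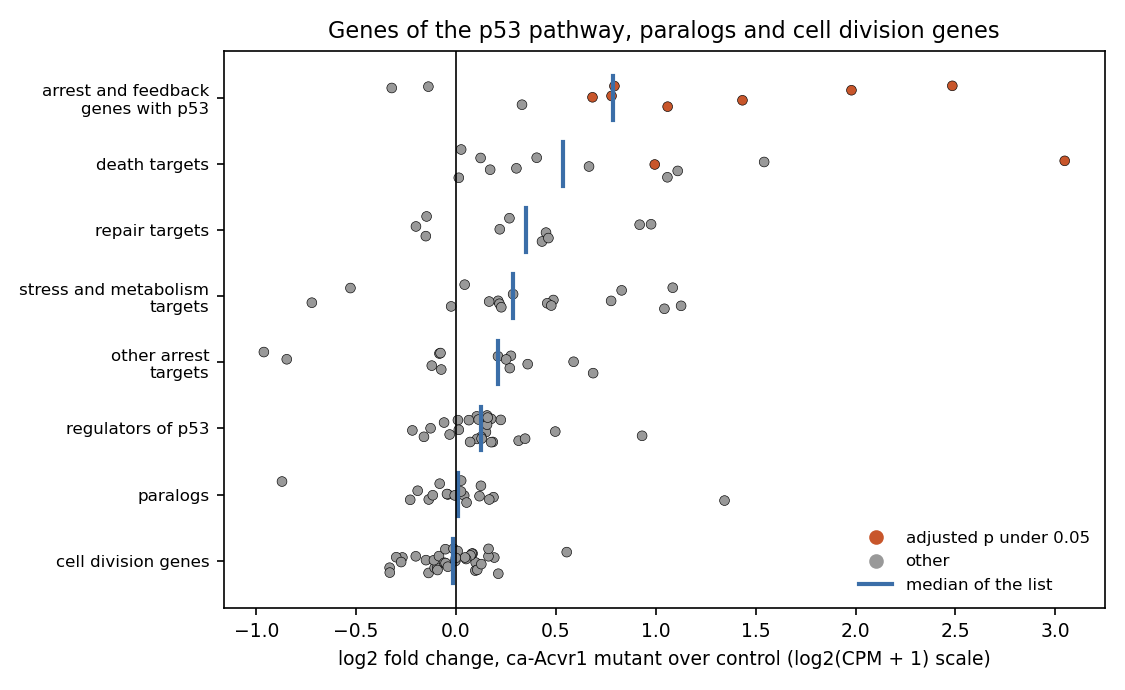
Log2 fold change of each gene tested (points, spread vertically at random) in lists of p53 targets, regulators, paralogs and cell division genes, mutant over control on the log2(CPM + 1) scale. Orange points were past the adjusted threshold and blue bars are medians, which run from 0.79 in the top row to −0.01 in the bottom row, and the highest point, *Eda2r*, is at 3.05.

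Markers of cell types also differed between the groups, and in bulk tissue fewer cells of a type and less RNA per cell cannot be told apart. Of 15 markers of mesenchyme from CNCCs, 10 were lower in the mutant libraries by limma and 0 higher, beside 0.594% and 0.305% of all genes tested. DESeq2 called 6 of the 15 lower, beside 31 of the 10529 genes for which it gave an adjusted p. The 15 markers summed to 2037 and 2387 CPM in the control and 1118 and 1114 CPM in the mutant libraries. The most abundant were *Col1a2*, which fell by 1.25 on the log2 scale, and *Tfap2b*, at −0.45. The list includes *Pdgfra*, whose deposited values are not all whole reads.

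Of 10 epithelial markers, 2, *Cdh1* and *Epcam*, were called higher by limma, and DESeq2 called 0 and had 3 higher at an unadjusted p under 0.05. The sum of the 10 was 268 and 246 CPM in the control and 419 and 381 CPM in the mutant libraries, or 1.56 times the control mean. The 9 neural markers, led by *Sox2* and *Tubb3*, summed to 1282 and 1304, then 1572 and 1731 CPM (1.28 times), with 0 called by each of the 4 tools and 4 higher in limma at an unadjusted p under 0.05. Of 6 macrophage markers tested 1, *Cx3cr1*, was called higher by limma, with *C1qb* next in level. DESeq2 called 0 of the 6 and had 1 higher at an unadjusted p under 0.05. The 6 summed to 36.3 and 34.6, then 59.0 and 87.5 CPM (2.07 times). *C1qa* was at 0 in control replicate 1, and no other listed marker was at 0 in a library.

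Endothelial markers, with *Kdr* and *Cdh5* the most abundant, summed to 151 to 165 CPM over the 4 libraries. Erythroid markers, chiefly *Hbb-y* and *Hbb-bh1*, summed to 6694 to 8468 CPM, and muscle markers, with *Myf5* and *Actc1*, to 4.44 to 5.81 CPM. Limma called 0 genes of these 3 lists, with 0 at an unadjusted p under 0.05, as did edgeR, DESeq2 and limma-voom. The part of cell composition in the levels of the 10 genes was not tested. Beside the marker sums, the folds of means of the 10 genes were 5.75 for *Cdkn1a*, 4.02 for *Ccng1*, 2.81 for *Phlda3*, 2.10 for *Zmat3*, 1.74 for *Trp53inp1*, 1.72 for *Mdm2*, 1.62 for *Btg2*, 1.27 for *Mdm4*, 0.900 for *Ppm1d* and 0.780 for *Trp53*. Those of *Trp53inp1*, *Mdm2* and *Btg2* lie between the folds of the epithelial and macrophage sums, 1.56 and 2.07. The macrophage sum is small, and *Cx3cr1* alone averaged 45.0 of its 73.2 CPM in the mutant libraries. The other marker sums were 1.28 times the control mean for neural, 1.16 for muscle and 0.979 for endothelial markers. They were 0.897 times for erythroid markers and 0.5045 times for mesenchyme.

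The genes outside the p53 lists whose pattern lay closest to that of *Cdkn1a* were found by Euclidean distance between log2(CPM + 1) values centered on the mean of the 4 libraries. On this scale the pattern of *Cdkn1a* itself has a length of 2.49. In order of distance they were *Ano3* (0.557), *Gm20110* (0.598), *Arap2* (0.663), *Zfp365* (0.705) and *Ddx60* (0.899). *Ano3*, of the anoctamin family of membrane proteins, was at 1.53 and 3.55 CPM in the control and 15.4 and 15.4 CPM in the mutant libraries. *Arap2*, which regulates small GTPases, was at 6.13 and 10.2, then 34.0 and 32.3 CPM.

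*Gm20110* had 1 and 2 reads in the control and 13 and 17 reads in the mutant libraries, and *Ddx60*, an antiviral helicase, had 1 and 3, then 11 and 15 reads. *Zfp365*, a zinc finger gene, was at 3.58 and 5.33, then 27.8 and 15.0 CPM. All 5 had a log2 fold change between 1.83 and 2.27, and limma called each of them higher except *Ddx60*. They were ranked over only 4 libraries, in which any gene that rises by a similar amount from control to mutant lies close to *Cdkn1a*.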

How the data were processed

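The 4 bulk RNA-Seq libraries of NP tissues at E11.5, 2 titled control and 2 titled ca-*Acvr1* mutant, were grouped by their titles. A QuantSeq 3′ kit was used, and the values the authors deposited are CPM, in which reads are scaled to library size. Their processing notes name STAR, featureCounts 1.6.4, DESeq2 and the build mm10, without the order of steps. Library totals were recovered from the smallest step between values, and 99.92% of values were whole reads within a tolerance of 0.02 reads, all values of the 10 genes included, while 43 values in 22 genes were not. The table lists 13577 genes and also has 33470 empty lines.

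The main test was limma 3.58.1 (R 4.3.3) on log2(CPM + 1) with its trend option. It covered 12462 genes, those averaging more than 1 CPM, and p-values were adjusted by the Benjamini-Hochberg method with a threshold of 0.05. Fold changes are on that scale, which understates the change of low genes. edgeR 4.0.16, DESeq2 1.42.0 and limma-voom were run on the recovered reads. Other alternatives were the pseudocount, the filter, TMM and upper-quartile scaling, a replicate block and leaving out each library. The main limma fit and the edgeR, DESeq2 and limma-voom fits of all 4 libraries were tested on simulated data first, and the other alternatives were not. The 10 genes, the other gene lists and the tests were chosen with earlier results of these data known. Genes named were the 10, the called genes (at most 5) and the 2 most abundant genes of each list, all markers as sums, the 5 nearest to *Cdkn1a*, and *Acvr1*. The values of 2 genes that this rule names are not reported here. Positions are from GENCODE M21 (GRCm38) and promoter windows from RefSeq (GRCm38.p6), in which 8 of the 10 genes matched by symbol. Python 3.11.15 was used for the sequence search and plots.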

Additional observations from a re-analysis of the deposited data

How the results depend on the processing

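Of the 10 genes, 7 were past the threshold in the main test and under most alternatives. The count was 6 with a pseudocount of 0.1 CPM or upper-quartile scaling, 3 with DESeq2, and from 4 to 7 when single libraries were left out, with the lowest count without mutant replicate 1. *Cdkn1a*, *Ccng1* and *Zmat3* were past it under each of these settings. The median log2 fold change of the 10 genes stayed between 0.70 and 0.92. The log2 fold change of *Ppm1d* ran from −0.32 without control replicate 1 to 0.0447 without control replicate 2, where it changed sign. TMM and upper-quartile scaling moved the median of all genes to 0.00 and −0.01.

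Over all genes the main test called 112, DESeq2 39 and edgeR 149, and the count ran from 94 to 462 when single libraries were left out, the highest without control replicate 1. Of the 78 other genes of the p53 lists, 2 were called in the main test, 1 with DESeq2 and from 2 to 11 when single libraries were left out (11 without control replicate 1, 5 without control replicate 2 and 4 without mutant replicate 2). In these fits the lone library of a group is assumed to vary like the other group. With replicate number as a block, 229 of all genes, 7 of the 10 and 8 of the 78 were called. The labels do not say that a number marks a shared litter or batch, and the differences between replicates correlated across genes with r = 0.0671 between the groups, so the block was not used as a pairing. Leaving out the 22 genes with values that are not whole reads, an alternative chosen after seeing the data, gave 100 calls. Depth limits the lowest genes, since 1 read is worth up to 0.511 CPM. The causes of these changes were not tested.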
